A study of Homo sapiens with 12 samples.

Results

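The genes described here encode the 2 chaperonins of human cells. Of the 10 genes, 8 (TCP1, CCT2, CCT3, CCT4, CCT5, CCT6A, CCT7 and CCT8) encode the subunits of CCT, the cytosolic chaperonin, and 2 (HSPD1 and HSPE1) encode the mitochondrial chaperonin and its lid. They were chosen by gene symbol, and all 10 were found among the 28008 genes of each count table and passed the filter on low counts in both cell lines. QGP-1 and BON-1 are established human cell lines from pancreatic neuroendocrine tumors. All 12 libraries came from cells that carry a tetracycline-inducible hairpin against MUC1 (tet-MUC1shRNA). The QGP-1 and BON-1 cells were each treated with 0.1% DMSO as vehicle or with 500 ng/mL doxycycline (DOX), which switches the hairpin on, and RNA was sequenced from 3 cultures per group. A treatment of 7 days is given for this RNA-seq experiment. No DOX-treated cells with a scrambled hairpin were analysed here, so the response to the drug itself and the response to the hairpin cannot be told apart, and the cells carry a single hairpin sequence.

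CCT is a stacked pair of rings in which each of the subunits has its own fixed place. Newly made proteins enter the central cavity and fold there as the subunits bind and release ATP. Actin and tubulin are its best known clients, and prefoldin and phosducin-like proteins deliver clients to it or tune its cycle. HSPD1 (HSP60) forms the ring-shaped folding chamber of the mitochondrial matrix, and HSPE1 (HSP10) is the lid that closes it. Chaperonins are in demand in cells that make much protein, and several CCT genes are counted among the targets of the transcription factor MYC. CCT3, CCT5 and CCT7 stand on a list of MYC targets that the study drew from these same samples, so the fall of these 3 genes is not independent evidence for such a list. The study lists them as lower in both lines. Here CCT3 in QGP-1 cells narrowly missed the call with edgeR and passed it with DESeq2, the test the study names.

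HSPD1 and HSPE1 lie head to head on chromosome 2 and share the DNA between their start sites. This DNA is shown because their estimated changes had opposite signs in BON-1 cells, although HSPD1 was not called there. HSPE1 is read on the plus strand from chr2:197500379 and HSPD1 on the minus strand from 197500274 (RefSeq, GRCh38.p14). The 104 bases between them, chr2:197500275-197500378, are given on the plus strand, with the letters CACGTG (the E-box that MYC can bind) in capitals. The last of these letters lies 17 bases before the HSPE1 start.
HSPD1-HSPE1 interval: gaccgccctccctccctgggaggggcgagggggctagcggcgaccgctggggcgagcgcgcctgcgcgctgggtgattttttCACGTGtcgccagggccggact
HSPD1 has another annotated start at 197499840, and 245 bases before it stand 3 overlapping matches, on either strand, to the letters TTCNNGAA or GAANNTTC, which make up heat shock elements. The 30 bases chr2:197500061-197500090 are printed on the minus strand, with the 18 matched bases in capitals.
HSPD1 heat shock letters: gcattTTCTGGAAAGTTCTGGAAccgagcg

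RefSeq windows of 300 bases, 250 before and 50 after a start, were found for 9 of the 10 genes (12 windows, CCT6A had none). CACGTG stood in the windows of HSPD1 and HSPE1, which hold the same site between their starts, and in none of the CCT windows. It stood in 7.26% of all 35116 windows. TTCNNGAA matched in CCT4 and HSPD1 (7.74% of all windows), and GAANNTTC in CCT2, TCP1 and HSPD1 (6.77%). CCAAT, the letters of the NF-Y site, stood in CCT2, CCT3, CCT8 and TCP1, against 34.6% of all windows. These are matches of letters on both strands, not binding measurements. CCT5, CCT7 and CCT8 were called lower with DOX in both lines, and the 100 bases before their starts are therefore given, each on the strand of its gene, with CCAAT or its reverse complement ATTGG in capitals. They lie at chr5:10250437-10250536, chr2:73234208-73234307 and chr21:29073649-29073748.
CCT5: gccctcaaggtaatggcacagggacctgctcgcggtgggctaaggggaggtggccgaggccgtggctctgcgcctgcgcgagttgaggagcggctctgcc
CCT7: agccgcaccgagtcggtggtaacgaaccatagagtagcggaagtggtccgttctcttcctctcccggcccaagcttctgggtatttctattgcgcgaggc
CCT8: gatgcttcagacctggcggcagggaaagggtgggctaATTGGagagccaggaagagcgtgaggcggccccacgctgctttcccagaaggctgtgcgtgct
Their G and C content was 70.0%, 58.0% and 63.0%, beside a median of 60.0% over the same stretch of all windows. No letters searched were common to these 3 upstream stretches.

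Sequencing was deeper for QGP-1 (38224144 to 50525926 counts per library) than for BON-1 (15981954 to 28484324), so low genes were measured less precisely in BON-1 cells. MUC1 transcripts fell in both lines, with log2 fold changes of -2.91 and -2.79 (DOX over vehicle), which checks the labels. Neuroendocrine and epithelial markers were present in both lines, except that NEUROD1, a neuroendocrine transcription factor, had 0 counts in all 6 QGP-1 libraries. CHGA, a granule protein of neuroendocrine cells, was at 6811 to 9224 CPM (counts scaled to a common library total after TMM normalization) with vehicle and 2677 to 3088 CPM with DOX in BON-1 cells. The 6 leukocyte, endothelial and fibroblast markers stayed at or below 3.20 CPM in every library. Counts of the noncoding RNAs RN7SK, RN7SL1 and RN7SL2 moved with DOX, at 5.37 to 6.38% of the vehicle counts and 3.30 to 4.53% of the DOX counts of QGP-1 cells. In BON-1 cells their shares overlapped (1.35 to 2.39% and 1.55 to 3.77%), and their part in the results below was not tested. In these cultures, less RNA per cell and fewer cells that hold the RNA cannot be told apart.

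The first question was how the CCT subunits responded to DOX in QGP-1 cells. CCT4, CCT5, CCT7 and CCT8 fell, with changes of -17.2% (CCT8) to -26.7% (CCT4), and none of the 8 subunits rose (edgeR, 0 also at an unadjusted p below 0.05, and 0 with DESeq2). A gene was called when its adjusted p (edgeR quasi-likelihood test, Benjamini-Hochberg over the 15089 genes tested) was below 0.05. Over all these genes, 17.7% were called lower and 17.3% higher. The median log2 fold change of the 8 subunits was -0.23, beside -0.01 for all genes tested.

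CCT4, the delta subunit, was at 311, 295 and 335 CPM with vehicle and at 235, 218 and 237 CPM with DOX. Each DOX library was below each vehicle library, and the log2 fold change was -0.45 ± 0.07 (SE, n = 3 per group, edgeR adjusted p = 0.000253). CCT5, the epsilon subunit, went from 320.4, 300.1 and 348 CPM to 262, 248 and 242 CPM. Its groups did not overlap either, with a log2 fold change of -0.37 ± 0.07 (edgeR adjusted p = 0.00128).

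CCT7, the eta subunit, read 133, 122 and 119 CPM with vehicle and 80.9, 100.2 and 102 CPM with DOX. The DOX libraries were lower without overlap, and DOX replicate 1 was the lowest of them (log2 fold change -0.40 ± 0.09, edgeR adjusted p = 0.00342). CCT8, the theta subunit, read 337, 324 and 361 CPM and then 289, 281 and 277 CPM. This was a smaller and tighter fall (log2 fold change -0.27 ± 0.07, edgeR adjusted p = 0.00531). All 4 calls held when any 1 of the 6 libraries was left out. On the scale of log2(TPM + 1), where limma put the median of all genes at 0.59, these 4 genes were above 0 but below that median.

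CCT3, the gamma subunit, was at 777, 767 and 808 CPM with vehicle and at 748, 667 and 658 CPM with DOX. Its groups did not overlap, yet the call was missed narrowly (log2 fold change -0.18 ± 0.07, edgeR adjusted p = 0.0501), and without DOX replicate 1 the adjusted p was 0.0125. CCT3 was called lower with DESeq2 in place of edgeR (adjusted p = 0.0346) and with no filter on low counts (0.0484). CCT2, the beta subunit, read 1153, 1144 and 1145 CPM with vehicle and 1091, 1060 and 1037 CPM with DOX. Its log2 fold change was -0.11 ± 0.06 (edgeR adjusted p = 0.176), although no DOX library reached a vehicle library. TCP1, the alpha subunit, had a log2 fold change of -0.07 ± 0.06 (edgeR adjusted p = 0.400), and CCT6A, a zeta subunit, of -0.11 ± 0.07 (edgeR adjusted p = 0.236). In all, 7 of the 8 subunits had every DOX library below every vehicle library, CCT6A being the exception, and 23.2% of all genes tested did so.

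**Figure D1:**
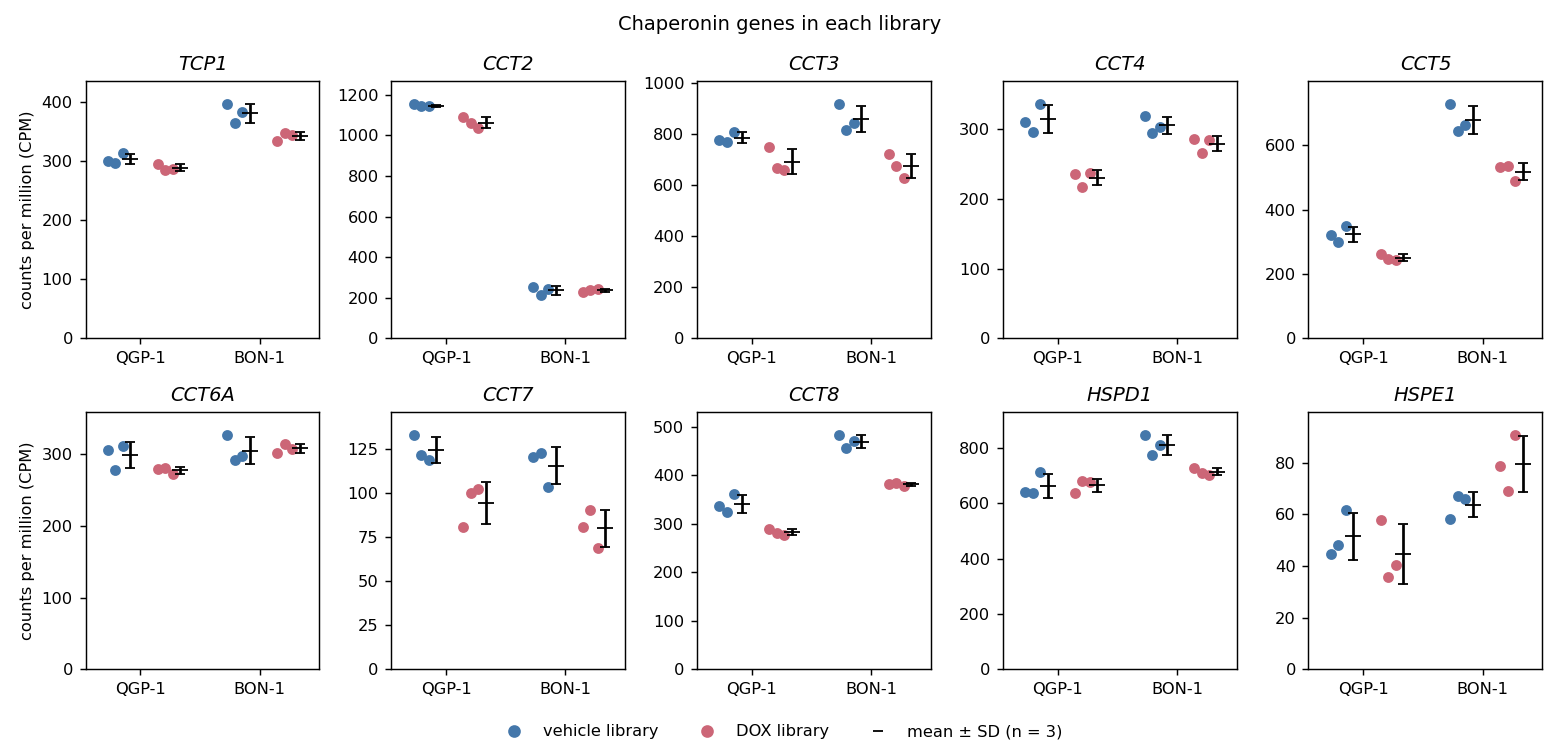
CPM (vertical axes, from 0) of the 10 chaperonin genes in each of the 12 libraries, with vehicle in blue and DOX in red and black bars for the mean ± SD (n = 3). The treatments do not overlap in 7 of the 8 CCT genes in QGP-1 cells (CCT6A overlaps) and in 6 in BON-1 cells (CCT2 and CCT6A overlap), and CCT2 differs far more between the lines than between treatments.

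In BON-1 cells the same question gave 4 subunits that fell, CCT3, CCT5, CCT7 and CCT8, with changes of -18.8% (CCT8) to -30.9% (CCT7), and again none that rose (edgeR, 0 also at an unadjusted p below 0.05). Of the 14625 genes tested there, 18.3% were called lower and 17% higher. The median log2 fold change of the 8 subunits was -0.23, beside -0.01 for all genes tested.

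CCT7 showed the largest fall of the 8 subunits, from 120.4, 123 and 103 CPM with vehicle to 80.6, 90.1 and 69.1 CPM with DOX. The log2 fold change was -0.53 ± 0.09 (edgeR adjusted p = 4.34e-05). CCT5 stood at 727, 644 and 663 CPM with vehicle and at 531, 535 and 488 CPM with DOX. The fall was -0.39 ± 0.08 on the log2 scale (edgeR adjusted p = 0.000313), with a wide gap between the groups.

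CCT3 read 915, 814 and 843 CPM with vehicle and 722, 673 and 625 CPM with DOX (log2 fold change -0.35 ± 0.08, edgeR adjusted p = 0.00135). CCT8 read 482, 456 and 469.8 CPM and then 381, 385 and 377 CPM (log2 fold change -0.30 ± 0.07, edgeR adjusted p = 0.00204). In both genes every DOX library lay below every vehicle library, and all 4 calls held without any 1 library. None of the 4 was called on the scale of log2(TPM + 1) with limma, where the median of all genes was -0.31.

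The other 4 subunits were not called in BON-1 cells. CCT4, which showed the largest fall of the 8 subunits in QGP-1 cells, read 318, 294 and 303 CPM with vehicle and 285, 266 and 284 CPM with DOX (log2 fold change -0.13 ± 0.07, edgeR adjusted p = 0.174). TCP1 had a log2 fold change of -0.16 ± 0.07 (edgeR adjusted p = 0.103). CCT2 (0.00 ± 0.08) and CCT6A (0.01 ± 0.07) had estimates near 0, with overlapping groups. Thus 6 of 8 subunits had DOX libraries below vehicle libraries without overlap, as did 23.9% of all genes tested.

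**Figure D2:**
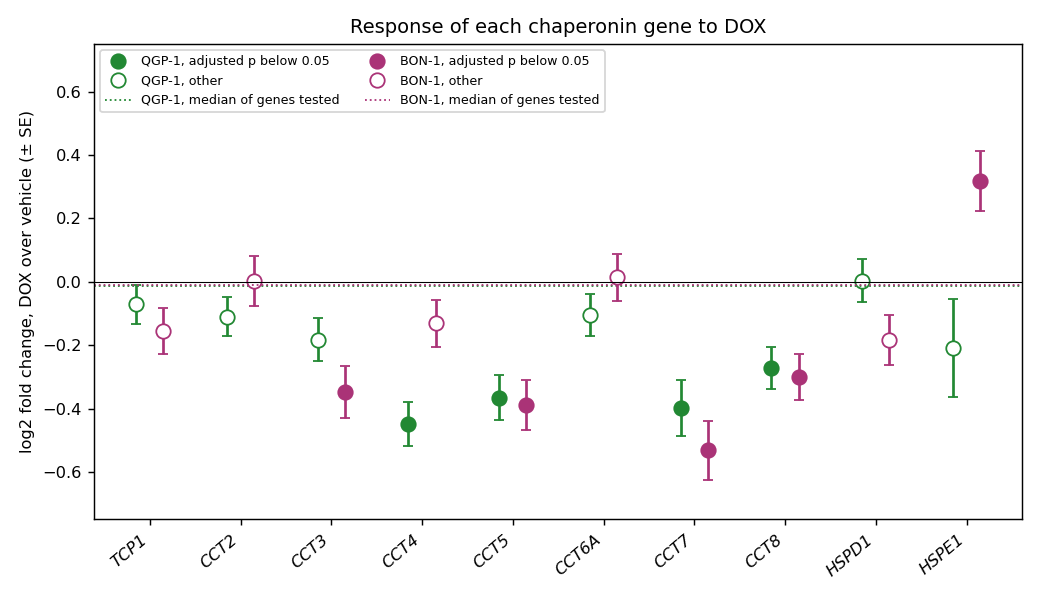
Log2 fold change (vertical axis, DOX over vehicle, ± SE) of the 10 chaperonin genes in QGP-1 (green) and BON-1 cells (purple), filled where the edgeR adjusted p was below 0.05, with dotted lines at the median of all genes tested. CCT5, CCT7 and CCT8 are filled and below 0 in both lines, and HSPE1 in BON-1 cells is the filled point above 0.

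Whether the responses differed between the lines was tested in a fit of all 12 libraries, with terms for the line, the treatment and their interaction. Of the 16598 genes tested, 16.7% were called, and 1 of the 10 chaperonin genes was. CCT4 fell less in BON-1 than in QGP-1 cells, with a log2 fold change in BON-1 minus that in QGP-1 of 0.33 ± 0.10 (SE, 95% interval 0.12 to 0.54, edgeR adjusted p = 0.0297). This call was lost when any of 7 of the 12 libraries was left out (QGP-1 vehicle 3, QGP-1 DOX 1 and 2, BON-1 vehicle 2 and 3, BON-1 DOX 1 and 3), with adjusted p of 0.0621 to 0.0911. It was also lost with plain library sizes (adjusted p = 0.0539) and with no filter on low counts (adjusted p = 0.0507).

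For the 3 subunits that fell in both lines the intervals of the difference were -0.24 to 0.21 for CCT5, -0.42 to 0.17 for CCT7 and -0.22 to 0.18 for CCT8. These intervals hold 0 but leave room for differences as large as several of the changes themselves. The difference for HSPE1 was 0.54 ± 0.20 (95% interval 0.13 to 0.95, edgeR adjusted p = 0.0639). It passed the test with no filter on low counts (adjusted p = 0.00209), without QGP-1 vehicle replicate 1 (0.0365) and without QGP-1 DOX replicate 1 (difference 0.72, adjusted p = 0.00501). The cell line, its medium and the sequencing depth differ together, so these differences cannot be assigned to the line alone.

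The mitochondrial pair was examined next. HSPD1 read 640.0, 636 and 714 CPM with vehicle and 637, 680 and 678 CPM with DOX in QGP-1 cells, where the groups overlapped (log2 fold change 0.00 ± 0.07, edgeR adjusted p = 0.976). In BON-1 cells it read 847, 775 and 812 CPM and then 728, 711 and 704 CPM. There each DOX library was below each vehicle library, but the call was missed (log2 fold change -0.18 ± 0.08, edgeR adjusted p = 0.0651). HSPD1 was called lower with DESeq2 in place of edgeR (adjusted p = 0.0140), with library sizes (0.0107), with no filter (0.0366) and with at least 10 counts in every library (0.0386).

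HSPE1 went the other way in BON-1 cells, from 58.3, 67.1 and 66.0 CPM with vehicle to 78.7, 69.1 and 90.6 CPM with DOX. It was the chaperonin gene that rose (log2 fold change 0.32 ± 0.09, edgeR adjusted p = 0.00918), and DOX libraries lay above vehicle libraries without overlap, as for 22.4% of all genes tested. The call rested on particular libraries, since the adjusted p was 0.0598 without BON-1 vehicle replicate 1 and 0.115 without BON-1 DOX replicate 3, where the log2 fold change was 0.19. In a fit that pooled the spread of both lines it was 0.0837. On the scale of log2(TPM + 1) HSPE1 was at -0.053, above the median of all genes there, and was not called.

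In QGP-1 cells HSPE1 read 44.5, 48.3 and 61.9 CPM with vehicle and 57.8, 35.6 and 40.3 CPM with DOX. The groups overlapped because DOX replicate 1 was as high as the vehicle libraries (log2 fold change -0.21 ± 0.16, edgeR adjusted p = 0.326). Without that library the log2 fold change was -0.43 (edgeR adjusted p = 0.0159).

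The level of the lid relative to the chamber does not depend on how libraries are scaled. It was taken as the ratio of the deposited TPM (a measure per library that divides by gene length) of HSPE1 and HSPD1 in each library. In BON-1 cells the ratio was 0.222, 0.280 and 0.263 with vehicle and 0.350, 0.315 and 0.417 with DOX. Every DOX library was above every vehicle library, with a mean difference of 0.49 on the log2 scale (exact two-sided permutation test, p = 0.1, the smallest p that 3 against 3 allows). In QGP-1 cells the ratio was 0.225, 0.246 and 0.281 and then 0.294, 0.170 and 0.193, with overlap (difference -0.23 on the log2 scale, exact two-sided permutation test, p = 0.5).

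HSPE1 counts carry an uncertainty of assignment. In the GENCODE annotation (GRCh38) HSPE1 spans chr2:197500140-197503449, and 192 of its 1823 exonic bases (10.5%) also belong to the readthrough gene HSPE1-MOB4. The row of HSPE1-MOB4 was 0 in all 12 libraries and that of MOB4 held 0 to 8 counts, and where their reads were counted is not known here. A further 7.41% of the HSPE1 exonic bases overlap HSPD1 on the other strand. The annotation lists 26 pseudogenes of HSPE1 and 18 of HSPD1, none with a row of its own in the tables. How the counting treated strand and shared reads was not given in the sources used here.

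**Figure D3:**
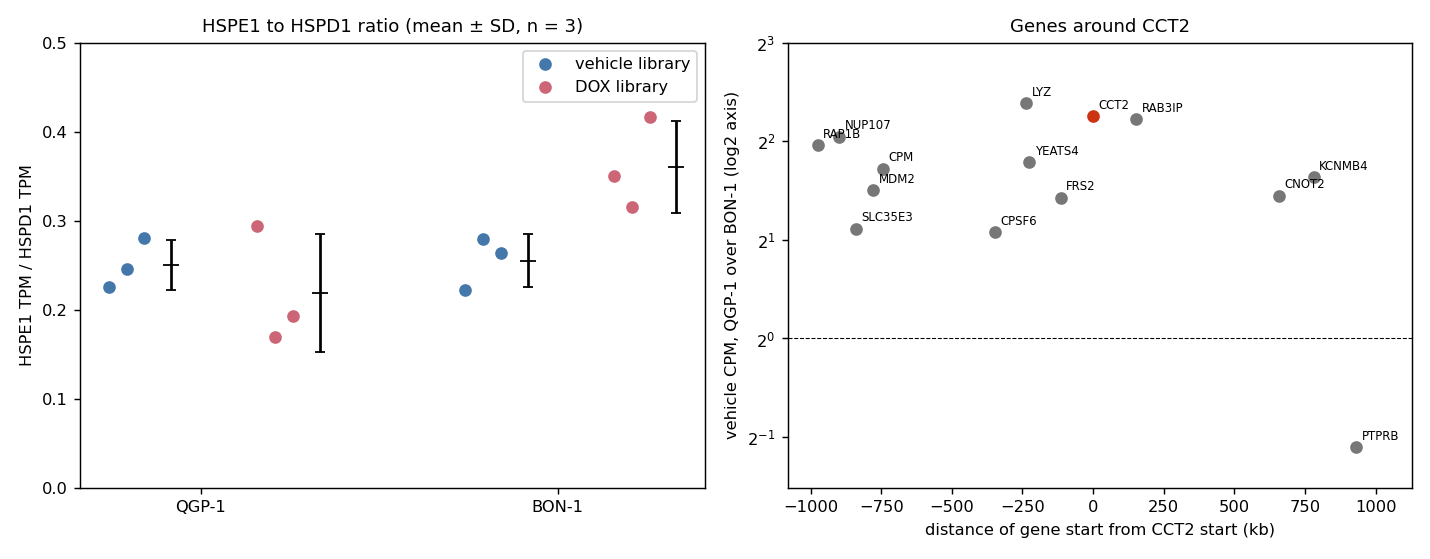
Left, HSPE1 to HSPD1 ratio of TPM (vertical axis, from 0) in each library, with the mean ± SD (n = 3); the BON-1 DOX libraries (0.315 to 0.417) sit above the BON-1 vehicle libraries (0.222 to 0.280). Right, ratio of vehicle CPM (by plain library totals) in QGP-1 over BON-1 cells (log2 axis) against the distance of each gene start from the CCT2 start (kb). CCT2 (red) and 12 of the 13 protein-coding neighbours with at least 1 CPM in both lines lie above 1.

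CCT subunits assemble in equal numbers, so the share of each subunit in the summed TPM of the 8 was computed in every library. The shares were far from equal in the transcripts. In QGP-1 cells CCT2 took 34.1, 34.8 and 33.0% with vehicle and 35.7, 36.2 and 35.7% with DOX, the largest share in each library. CCT3 followed at 22.1 ± 0.2% with vehicle (SD, n = 3). CCT8 (9.92 ± 0.30%), CCT4 (8.98 ± 0.34%), TCP1 (8.30 ± 0.08%) and CCT6A (7.41 ± 0.27%) came next, then CCT5 (5.08 ± 0.25%) and CCT7 (4.22 ± 0.29%). The highest mean TPM with vehicle was 8.04 times the lowest.

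In BON-1 cells the order was another. CCT3 led with 28.4, 27.8 and 27.9% with vehicle and 27.5, 25.8 and 24.8% with DOX, and CCT2 held 8.20, 7.62 and 8.52% and then 9.15, 9.51 and 10.2%. CCT8 took 15.9 ± 0.4%, CCT5 12.4 ± 0.2%, TCP1 12.1 ± 0.2%, CCT4 10.1 ± 0.1% and CCT6A 8.79 ± 0.13% with vehicle, and CCT7 was again lowest at 4.54 ± 0.47%. CCT5 and TCP1 lay within about their summed SD of each other. The highest mean TPM was 6.12 times the lowest.

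With DOX the spread was wider in both lines, at 9.74 times in QGP-1 and 7.08 times in BON-1 cells. In QGP-1 cells the share of CCT4 changed by -1.47 percentage points and that of CCT2 by 1.92. In BON-1 cells CCT3 changed by -2.02 points and CCT5 by -1.21, while CCT6A gained 1.70 and CCT2 gained 1.49. A share can rise because the other subunits fell, as for CCT2 in QGP-1 cells, whose CPM were lower with DOX.

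The order of the levels rests on the gene lengths used for the TPM, which were not given. Comparing TPM with counts showed that the length used for CCT5 was the longest of the 8. The lengths of the other 7 subunits were 0.465 to 0.634 times that of CCT5 in QGP-1 cells. The position of CCT5 in the order is therefore less certain than the others, but a comparison of the same gene between libraries is not touched by it.

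**Figure D4:**
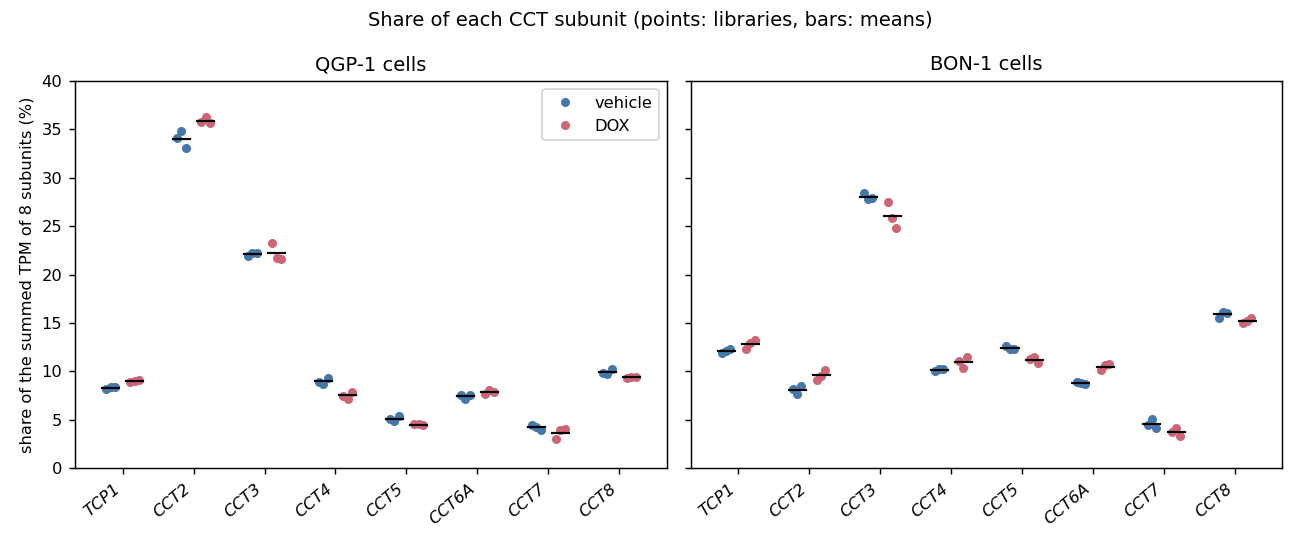
Share of each CCT subunit in the summed TPM of the 8 subunits (vertical axis, %, from 0), as points for the 3 vehicle (blue) and 3 DOX (red) libraries with black bars at the means. CCT2 leads in QGP-1 cells at 33.0 to 36.2%, CCT3 leads in BON-1 cells at 24.8 to 28.4%, and CCT7 is lowest on average in both.

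The difference between the lines in CCT2 was larger than the response of any chaperonin gene to DOX. Vehicle CPM of CCT2 were 4.76-fold higher in QGP-1 than in BON-1 cells, whereas the ratios of the other 9 chaperonin genes ran from 0.467 (CCT5) to 1.06 (CCT7). All CPM in this comparison used plain library totals, without TMM normalization. Of 12140 genes with a mean vehicle level of at least 1 CPM in both lines, 5.54% had a ratio above 3, and the median ratio was 0.97. CCT2 lies on the plus strand at chr12:69585426-69601570 (GRCh38). After its ratio had been seen, the protein-coding genes within 1 Mb of CCT2 that met the same minimum were looked up. Of these 13 neighbours, 12 were higher in QGP-1 cells and 7 were more than 3-fold higher, with a median ratio of 3.11. RAB3IP, which acts in vesicle traffic, stood at 4.66 and NUP107, a nuclear pore protein, at 4.13, while PTPRB, a receptor phosphatase, was lower at 0.465. MDM2, the ubiquitin ligase of p53, was at 2.83. These ratios are descriptions without a test, and the genes share their libraries and their stretch of chromosome.

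CCT has relatives outside the ring. BBS10 and BBS12, chaperonin-like proteins that assemble the ciliary BBSome, fell in QGP-1 cells (log2 fold changes of -0.75 ± 0.12 with an edgeR adjusted p of 0.000243, and -0.88 ± 0.15 with 0.000397). In BON-1 cells BBS10 fell by 0.25 on the log2 scale (edgeR adjusted p = 0.0379, but 0.0518 with DESeq2 and 0.0967 with both lines in 1 fit), and BBS12, with 14 to 63 counts per library, was not called (-0.59 ± 0.40). The BBS10 response differed between the lines (difference 0.51 ± 0.15, edgeR adjusted p = 0.0235), though not with plain library sizes (adjusted p = 0.0570). MKKS, the third member of that group, had log2 fold changes of -0.06 and -0.03. CCT6B, the testis form of the zeta subunit, was low, at 65 to 121 counts per library in QGP-1 and 13 to 26 in BON-1 cells, and was not called.

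The pseudogene rows CCT6P1 and CCT6P3 resemble CCT6A and could share reads with it. In BON-1 cells they rose, with log2 fold changes of 0.62 (edgeR adjusted p = 0.00432) and 0.65 (edgeR adjusted p = 0.0226), at means of 5.69 to 13.8 CPM with DOX against 308 CPM for CCT6A. In QGP-1 cells neither was called. TCP1 has its own overlap, since 9.30% of its exonic bases are shared with ACAT2 on the other strand.

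The genes around the chaperonins came from 5 lists of 67 genes in all, which passed the filter on low counts in both lines. In QGP-1 cells 14 fell and 8 rose (20.9% and 11.9%), and in BON-1 cells 26 fell and 4 rose (38.8% and 5.97%). Over all genes tested the shares called lower and higher were 17.7% and 17.3% in QGP-1 and 18.3% and 17% in BON-1 cells, so the share that fell in QGP-1 cells was close to that of all genes. The median log2 fold changes were -0.08 and -0.18, beside -0.01 for all genes tested in either line.

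Among the 12 cofactors and prefoldin subunits, UXT and TXNDC9 fell in QGP-1 cells and none rose (edgeR, 0 also at an unadjusted p below 0.05 and with DESeq2). The 16.7% that fell lay near the 17.7% of all genes called lower there, and 17.3% of all genes were called higher. In BON-1 cells 16.7% fell and 16.7% rose, near the 18.3% and 17% of all genes. UXT, a prefoldin-like protein, went from 28.5 ± 1.1 to 19.4 ± 1.9 CPM (SD, n = 3, log2 fold change -0.55, edgeR adjusted p = 0.000652). TXNDC9, a phosducin-like cofactor of CCT, fell by 0.37 on the log2 scale (edgeR adjusted p = 0.0135), although its groups overlapped. In BON-1 cells URI1, a prefoldin-like scaffold (0.41, edgeR adjusted p = 0.000368), and PFDN4, a prefoldin subunit (0.45, edgeR adjusted p = 0.00369), rose. PFDN2 (-0.86, edgeR adjusted p = 0.0252) and PDCL, a phosducin-like cofactor (-0.32, edgeR adjusted p = 0.0319), fell, and neither was called with DESeq2 (adjusted p of 0.290 and 0.0608). TXNDC9 was at 0.20 there (edgeR adjusted p = 0.111), and its response differed between the lines (difference 0.58 ± 0.16, edgeR adjusted p = 0.0124).

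Of the 19 clients and tubulin folding cofactors, 4 fell and 5 rose in QGP-1 cells, while 8 fell and 2 rose in BON-1 cells. The 21.1% that fell in QGP-1 cells lay near the 17.7% of all genes, and the 42.1% in BON-1 cells stood beside 18.3%. The share that rose was 26.3% in QGP-1 (17.3% of all genes) and 10.5% in BON-1 cells (17% of all genes). The actin genes rose in QGP-1 cells, ACTG1 from 1126 ± 114 to 1690 ± 130 CPM (log2 fold change 0.59, edgeR adjusted p = 0.000116) and ACTB from 3622 ± 195 to 4553 ± 498 CPM (0.33, edgeR adjusted p = 0.00514). In BON-1 cells their log2 fold changes were 0.16 and 0.18 and neither was called (with DESeq2, ACTB was, at an adjusted p of 0.0451), and the ACTG1 response differed between the lines (difference -0.41 ± 0.13, edgeR adjusted p = 0.0264).

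Of the 3 alpha tubulins on the list, TUBA1B and TUBA1C fell in both lines and TUBA1A did not. TUBA1B changed by -0.30 in QGP-1 (edgeR adjusted p = 0.00233) and by -0.60 in BON-1 cells (edgeR adjusted p = 9.02e-07), and the fall was larger in BON-1 cells (difference -0.29 ± 0.10, edgeR adjusted p = 0.0434). TUBA1C changed by -0.44 (edgeR adjusted p = 0.000352) and -0.54 (edgeR adjusted p = 3.17e-06). TUBA1A, named after its values were seen, rose in BON-1 cells (0.42, edgeR adjusted p = 0.000218) and was at -0.28 in QGP-1 cells (edgeR adjusted p = 0.0811, and 0.00313 without QGP-1 DOX replicate 1), with a tested difference of 0.71 ± 0.15 (edgeR adjusted p = 0.00225). CDC20, the activator of the anaphase-promoting complex and a CCT client, fell in BON-1 cells from 78.6 ± 1.1 to 48.3 ± 6.5 CPM (-0.70, edgeR adjusted p = 9.89e-07). In QGP-1 cells it was at -0.07 (edgeR adjusted p = 0.751), and the difference of -0.62 ± 0.19 passed the test (edgeR adjusted p = 0.0247). TUBG1, the gamma tubulin of centrosomes, changed by -0.58 in BON-1 (edgeR adjusted p = 0.000126) and by -0.30 in QGP-1 cells (edgeR adjusted p = 0.00608). Its difference between the lines did not pass the test (edgeR adjusted p = 0.189). TUBG1 stands on lists that the study drew from these samples, so its fall is not independent evidence for them. Actin genes and alpha tubulin genes are near copies of each other, and reads could be split between them.

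The 13 other mitochondrial chaperones and proteases gave few calls. Over all genes tested, 17.7% were called lower and 17.3% higher in QGP-1, and 18.3% and 17% in BON-1 cells. The list is short, and its share was not tested against these. None of the 13 was called in QGP-1 cells with edgeR (3 were lower at an unadjusted p below 0.05, and DESeq2 called 1 lower), and 1 (7.69%) fell in BON-1 cells. This was LONP1, the matrix protease, which went from 48.2 ± 1.9 to 35.6 ± 4.4 CPM (log2 fold change -0.44, edgeR adjusted p = 0.00101). In QGP-1 cells LONP1 was at -0.28 (edgeR adjusted p = 0.0705, but 0.0303 with no filter and 0.00764 without QGP-1 DOX replicate 2).

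Cytosolic heat shock proteins and their cofactors gave calls in both lines. In BON-1 cells 14 of the 19 fell and none rose (edgeR, 0 also at an unadjusted p below 0.05 and with DESeq2), with a median log2 fold change of -0.32, and in QGP-1 cells 6 fell and 3 rose, with a median of -0.10. The share that fell was 73.7% in BON-1 (18.3% of all genes) and 31.6% in QGP-1 cells (17.7% of all genes). The 15.8% that rose in QGP-1 cells lay near the 17.3% of all genes, and the 0% in BON-1 cells stood beside 17%. The difference between the lines passed the test for 6 of the 19 genes, 5 of them lower and 1 higher in BON-1 cells. Over all 16598 genes tested, 16.7% passed it, 1315 of them lower and 1461 higher in BON-1 cells. The group as a whole was not tested. ST13, which passes clients from HSP70 to HSP90, fell in both lines (-0.28, edgeR adjusted p = 0.00462, and -0.44, edgeR adjusted p = 4.45e-05). HSPB1, a small heat shock protein, fell from 9.43 ± 0.65 to 3.59 ± 0.38 CPM in QGP-1 (-1.39, edgeR adjusted p = 1.22e-05) and from 83.3 ± 5.0 to 60.0 ± 5.8 CPM in BON-1 cells (-0.48, edgeR adjusted p = 0.000100). The HSPB1 fall was smaller in BON-1 cells (difference 0.92 ± 0.15, edgeR adjusted p = 0.000128).

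CDC37, the kinase adaptor of HSP90, fell in BON-1 (-0.54, edgeR adjusted p = 8.19e-05) and in QGP-1 cells (-0.26, edgeR adjusted p = 0.0341). STIP1, which links HSP70 and HSP90, fell in BON-1 cells (-0.43, edgeR adjusted p = 0.000185) and was at -0.18 in QGP-1 cells (edgeR adjusted p = 0.0857). For neither gene did the difference between the lines pass the test (edgeR adjusted p of 0.196 and 0.184). DNAJA1, an HSP40 co-chaperone, rose in QGP-1 cells (0.26, edgeR adjusted p = 0.00851) and fell in BON-1 cells (-0.35, edgeR adjusted p = 0.00169), with a tested difference of -0.60 ± 0.12 (edgeR adjusted p = 0.000964). HSPA1A, the inducible HSP70, rose in QGP-1 cells (0.43, edgeR adjusted p = 0.00837) and was at -0.08 in BON-1 cells, again with a tested difference (-0.50 ± 0.15, edgeR adjusted p = 0.0216). HSPA1A and HSPA1B are nearly identical, so their counts are uncertain. HSPA1B rose in QGP-1 cells (0.35, edgeR adjusted p = 0.00951) and fell in BON-1 cells (-0.32, edgeR adjusted p = 0.0110). Its difference between the lines also passed the test (-0.66 ± 0.14, edgeR adjusted p = 0.00192). The values of HSPA1B were not followed under the alternatives.

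**Figure D5:**
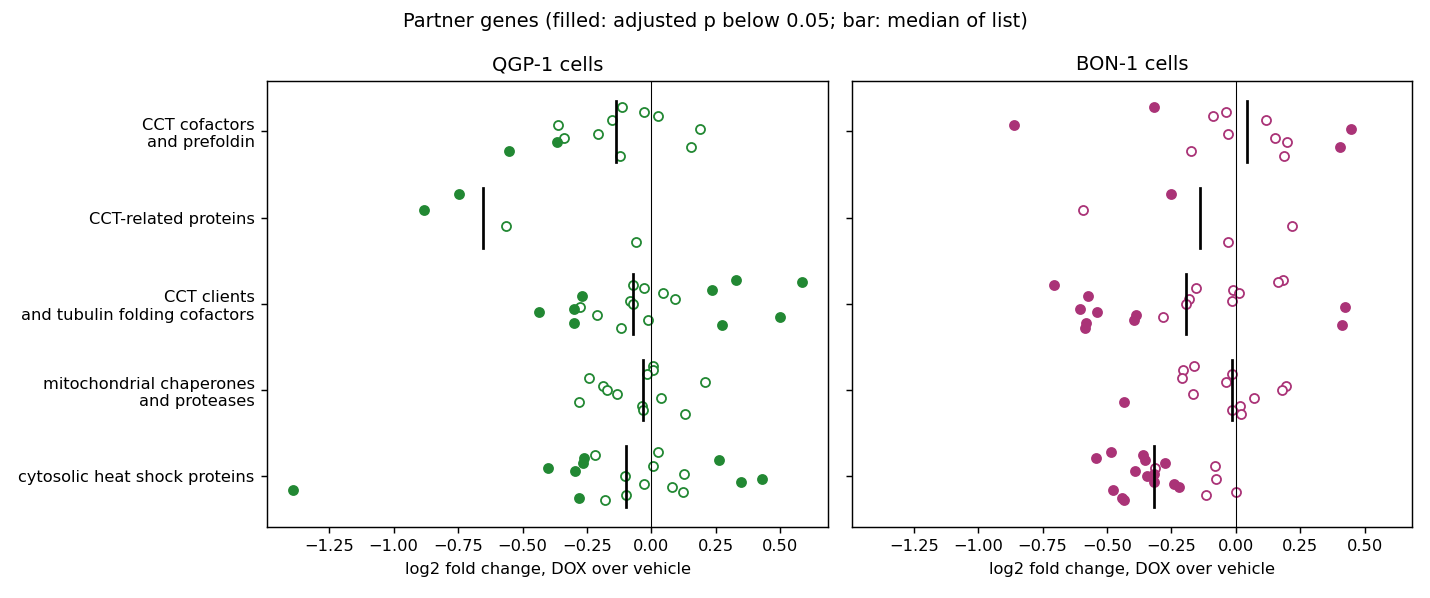
Log2 fold change (horizontal axis, DOX over vehicle) of each gene of the 5 partner lists in QGP-1 (green) and BON-1 cells (purple), filled where the edgeR adjusted p was below 0.05, with a black bar at the median of the list. Cytosolic heat shock proteins lie mostly left of 0 in BON-1 cells, with a median of -0.32, and mitochondrial chaperones and proteases lie around 0 in both lines.

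Genes whose pattern was most like that of CCT were sought among 13525 genes, by the root mean square difference over the 12 libraries between the log2 CPM of a gene and the mean of the 8 subunits, each set to the vehicle mean of its line. The closest were APEX1, a DNA repair endonuclease (0.04), PXMP4, a peroxisomal membrane protein (0.04), DCTD, a deoxycytidylate deaminase (0.04), SORD, the sorbitol dehydrogenase (0.04), and INTS14, an Integrator subunit (0.05). APEX1 stands on the same MYC target list of the study as CCT3, CCT5 and CCT7. Among the chaperonin genes, CCT8 was nearest to that mean (0.04), CCT7 was the farthest of the subunits (0.21), and HSPE1 was farther still (0.34). The subunits are part of the mean they are compared with, and the measure is a description without a test.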

How the data were processed

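RNA-seq gene counts and TPM from 12 libraries (4 groups of 3) were analysed. Per the labels and the study's methods, RNA from triplicate cultures was made into TruSeq Stranded mRNA libraries and aligned to GRCh38 with STAR; versions, the counting tool, its strand setting and the treatment of shared reads were not given in the sources used here. The deposited counts were whole and not normalized by the authors, and the deposited TPM were computed by the authors with gene lengths not given in the sources used here. RN7SK, RN7SL1 and RN7SL2 took 50.9 to 80.3% of the TPM, so TPM served for ratios and shares within a library. All columns of per-sample values were used.

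Counts were tested within each line with edgeR 4.0.16 (filterByExpr, TMM, quasi-likelihood test) in R 4.3.3, with Benjamini-Hochberg adjustment over all genes tested and a threshold of 0.05. The interaction of line and treatment was fitted on all 12 libraries. The code was tested on simulated data. Alternatives were DESeq2 1.42.0, library sizes, RLE factors, other filters, a replicate block, limma 3.58.1 on log2(TPM + 1) (mean TPM at or above 1), both lines in 1 fit, and leaving out each library. The study names DESeq2 for its own test. Replicates of a group were all distinct libraries, and since their origin is given only as triplicate cultures, p-values measure the spread between these samples.

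The members and lists were chosen with earlier results of these data known. Named were all members, MUC1, relatives and pseudogenes of CCT, up to 4 called genes with the smallest adjusted p per partner list and line, and the 5 genes most like the CCT mean. DNAJA1 in BON-1 cells, TUBA1A, HSPA1B, values given for the other line and the neighbours of CCT2 were added after their values were seen. Gene positions and overlaps come from GENCODE v44 and promoter windows from RefSeq.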

Additional observations from a re-analysis of the deposited data

Results flagged for a closer look

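A response that differed between QGP-1 and BON-1 cells by the test of the interaction is listed here, as the log2 fold change in BON-1 minus that in QGP-1 cells. Of the chaperonin genes it was 0.33 for CCT4. Of the partner genes named in the report it was 0.58 for TXNDC9, 0.51 for BBS10, -0.41 for ACTG1, -0.29 for TUBA1B and 0.71 for TUBA1A. It was -0.62 for CDC20, -0.50 for HSPA1A, -0.66 for HSPA1B, -0.60 for DNAJA1 and 0.92 for HSPB1. Partner genes not named in the report also passed the test, as did 16.7% of all genes tested. Those of DNAJA1, HSPB1 and TUBA1A passed the test in each of 12 fits that left out 1 library (edgeR). Those of CCT4, TXNDC9, BBS10, ACTG1, TUBA1B, CDC20 and HSPA1A were lost in 3 to 7 of the 12, and HSPA1B was not followed in these fits. Line, medium and depth differ together and cannot be told apart.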

How the results depend on the processing

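The 4 falls called in each line held under every alternative except the TPM scale. On log2(TPM + 1) with limma, the median of all genes moved to 0.59 in QGP-1 and -0.31 in BON-1 cells, and the calls split into 89 lower and 9149 higher, and 335 lower and 34 higher, against 2676 and 2610, and 2677 and 2488, with edgeR. On that scale 0 members were lower and 10 higher in QGP-1 cells, with 1 partner gene lower and 60 higher, and in BON-1 cells 0 members were lower and 0 higher, with 2 partner genes lower and 0 higher. All the called members lay on their own side of that median (4 of 4 and 5 of 5). Log2 values whose sign changed on that scale were, in QGP-1 cells, TCP1 0.66, CCT2 0.63, CCT3 0.55, CCT4 0.29, CCT5 0.36, CCT6A 0.62, CCT7 0.32, CCT8 0.46, HSPE1 0.50, UXT 0.17, TXNDC9 0.37, BBS10 0.0051, TUBA1C 0.29, TUBA1B 0.44, ST13 0.44, TUBA1A 0.44, CDC20 0.61 and LONP1 0.37, and in BON-1 cells CCT2 -0.36, CCT6A -0.35, HSPE1 -0.053, ACTG1 -0.20, ACTB -0.18 and TXNDC9 -0.15. With library sizes in place of TMM, 7 members were lower in BON-1 cells (TCP1, CCT4 and HSPD1 were added, with adjusted p of 0.0218, 0.0435 and 0.0107), CCT2 (-0.042) and CCT6A (-0.030) changed sign without being called, 0 differed between the lines, and the interaction calls split into 1823 lower and 1123 higher against 1315 and 1461. With no filter CCT2 was at -0.017 and CCT6A at -0.0049 in BON-1 cells, and with at least 10 counts in every library CCT2 was at -0.012. With both lines in 1 fit 0 members were higher in BON-1 cells. CCT3 in QGP-1 cells was also called with DESeq2 (adjusted p = 0.0346) and with no filter (0.0484). HSPD1 in BON-1 cells was also called with DESeq2 (0.0140), with no filter (0.0366) and with at least 10 counts (0.0386), and the HSPE1 difference between the lines with no filter (0.00209). In CPM by plain library totals the highest CCT level was 9.21 times the lowest in QGP-1 and 7.41 times in BON-1 cells.

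Without 1 library at a time, 4 to 6 members were lower and 0 higher in QGP-1 cells, and 4 lower and 0 to 1 higher in BON-1 cells. Between the lines 0 to 2 differed. Partner genes lower and higher numbered 9 to 18 and 4 to 10 in QGP-1, and 22 to 25 and 4 to 5 in BON-1 cells. The HSPE1 to HSPD1 difference ranged from -0.46 to -0.07 in QGP-1 and from 0.39 to 0.59 in BON-1 cells, and the CCT level ratio from 7.87 to 8.31 and from 5.84 to 6.56. Log2 fold changes that crossed 0 ranged from -0.026 to 0.059 (HSPD1) and -0.21 to 0.098 (CDC20) in QGP-1 and from -0.078 to 0.048 (CCT2) and -0.025 to 0.065 (CCT6A) in BON-1 cells, and the difference between the lines from -0.079 to 0.036 (CCT5) and -0.069 to 0.015 (CCT8). Calls of TXNDC9 (without QGP-1 vehicle 2 or 3), DNAJA1 (QGP-1 vehicle 2), PFDN2 (BON-1 vehicle 1 or 2, or DOX 3), PDCL (BON-1 vehicle 1 or 3, or DOX 1) and BBS10 in BON-1 cells (vehicle 2 or 3, or DOX 2 or 3) were lost.

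To look for pairing, the mean of its own group was subtracted from the log2 CPM of each library, gene by gene. What remained correlated between same-numbered vehicle and DOX libraries at -0.07, 0.12 and 0.09 in QGP-1 and -0.06, -0.04 and 0.09 in BON-1 cells. Other pairs ran from -0.28 to 0.18 in QGP-1 and from -0.10 to 0.12 in BON-1 cells, so same-numbered pairs did not stand out. With 3 libraries per group these values cannot show whether the cultures were paired. With the replicate block 5 members were lower in QGP-1 cells (CCT3 was called) and 4 lower and 1 higher in BON-1 cells, 1 differed between the lines, and TUBA1B no longer differed between the lines. The paired HSPE1 to HSPD1 differences of -0.23 and 0.49 had exact sign-flip p of 0.5 and 0.25. The cause of these shifts was not tested. CCT6B and BBS12 are limited by their low counts, those of BON-1 cells more so.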
